A study of Mus musculus with 18 samples.

Results

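The genes described here are 35 antiviral effectors and RNA sensors, most of them known as interferon-stimulated genes, in a mouse macrophage-like cell line. They were chosen by name with earlier results of these data known. Their counts beside the shares of all listed genes below are therefore a description and not independent support. Every row of the authors' deposited table of significant differences that carried exactly such a name was taken. Of the 35 genes, 34 were listed, out of 5402 singly named genes listed in any comparison among the groups. They had 60 transcript-level entries and 355 rows. Cmpk2, a mitochondrial nucleotide kinase, had no row under its own name.

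Poly(A)-selected RNA was sequenced from 18 samples of RAW264.7 cells, 3 in each of 6 groups. RAW264.7 is a macrophage-like line of mouse origin. Parental cells were either untreated or given doxycycline at 100 ng/mL. Construct cells carried pINDUCER20-mCITED1, a lentivirus that expresses mouse CITED1 once doxycycline is added. CITED1 binds other proteins at promoters rather than DNA itself and adjusts their activity. Construct cells were untreated, or received doxycycline, interferon-gamma (IFNγ) at 200 U/mL, or both. No group of parental cells with IFNγ was analysed here, so in stimulated cells an effect of doxycycline itself and one of induced CITED1 cannot be told apart. The labels used here do not say whether the construct cells were a clone, how long the treatments lasted or whether replicates were separate cultures.

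Interferons bind receptors on the cell surface and switch on a large set of genes. IFNγ is known to act mainly at promoter elements called gamma-activated sites, and type I interferons mainly at interferon-stimulated response elements. Among the products, RIG-I (Ddx58), MDA5 (Ifih1) and LGP2 (Dhx58) detect viral RNA in the cytoplasm, whereas MX, OAS, PARP and TRIM family proteins interfere with viral replication at other steps.

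The promoters are shown first because they are where interferon-responsive factors are known to bind. RefSeq start-site windows of the GRCm38.p6 build, from 250 bases before to 50 bases after the start, were found for 24 of the 35 genes (33 windows). A pair of motifs was searched on both strands: GAAANNGAA, a core of the interferon-stimulated response element, and TTCNNNGAA, the gamma-activated site. The first was found in 13 of the 24 genes, against 9.76% of all 27025 genes with a window. The second was found in 6 of the 24, against 9.55% of all genes. In 7 of the 24, 2 copies of the first core overlapped, an arrangement found in 0.241% of all genes, and this arrangement was searched for only after the positions of the matches had been seen.

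The 250 bases before the start follow for 5 genes, read 5′ to 3′ on the strand of the gene, with overlapping response-element cores in capitals. Apol9b and Isg20 are those with a window among the 5 of the 35 members that rose most with doxycycline in stimulated cells. Oas1a, Oas1g and Oas3 were added after the matches had been seen, because these OAS genes differ in their listing below while all 3 hold the overlapping cores.
Apol9b, chr15:77728822-77729071, plus strand: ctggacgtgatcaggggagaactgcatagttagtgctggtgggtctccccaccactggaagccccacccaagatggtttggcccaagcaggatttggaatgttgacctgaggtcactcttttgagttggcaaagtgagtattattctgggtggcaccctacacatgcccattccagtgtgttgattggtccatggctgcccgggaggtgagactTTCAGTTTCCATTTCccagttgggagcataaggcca
Isg20, chr7:78913515-78913764, plus strand: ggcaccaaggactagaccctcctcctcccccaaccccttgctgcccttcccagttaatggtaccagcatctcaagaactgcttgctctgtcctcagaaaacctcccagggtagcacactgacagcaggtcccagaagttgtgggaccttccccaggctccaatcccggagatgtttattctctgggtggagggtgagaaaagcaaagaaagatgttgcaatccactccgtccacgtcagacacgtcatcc
Oas1a, chr5:120907526-120907775, minus strand: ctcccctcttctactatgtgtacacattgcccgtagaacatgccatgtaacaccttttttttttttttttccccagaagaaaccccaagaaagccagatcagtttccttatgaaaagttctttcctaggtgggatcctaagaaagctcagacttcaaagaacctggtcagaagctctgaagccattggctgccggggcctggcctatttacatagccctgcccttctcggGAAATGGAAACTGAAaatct
Oas1g, chr5:120887614-120887863, minus strand: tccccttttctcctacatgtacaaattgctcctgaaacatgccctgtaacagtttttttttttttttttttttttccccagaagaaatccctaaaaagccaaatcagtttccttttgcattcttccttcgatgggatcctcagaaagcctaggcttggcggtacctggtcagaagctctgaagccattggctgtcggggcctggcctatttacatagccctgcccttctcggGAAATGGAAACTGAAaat
Oas3, chr5:120777660-120777909, minus strand: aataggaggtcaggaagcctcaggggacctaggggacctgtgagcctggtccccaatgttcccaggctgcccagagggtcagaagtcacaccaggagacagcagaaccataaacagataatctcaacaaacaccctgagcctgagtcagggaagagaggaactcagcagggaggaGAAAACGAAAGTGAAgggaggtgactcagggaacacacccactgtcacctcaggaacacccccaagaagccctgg
In Apol9b the cores lie on the opposite strand. Oas1a and Oas1g share the same stretch of capitals close to the start, and in Oas3 a related stretch lies farther upstream. Isg20 has no match to the first core in its window. Of the genes with a window, the first core was found in 8 of 12 listed as higher with doxycycline in stimulated cells and in 5 of 12 not listed there. Those not listed include Trim25, Sp100, Lgals3bp, Ifi44, Ifi35 and Cmpk2. For these, a level with IFNγ alone or with both treatments could not be rebuilt, so their response to doxycycline is unknown. The shares are therefore not a contrast of responding with non-responding genes. A match is a description of letters and not evidence of binding.

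**Figure D1:**
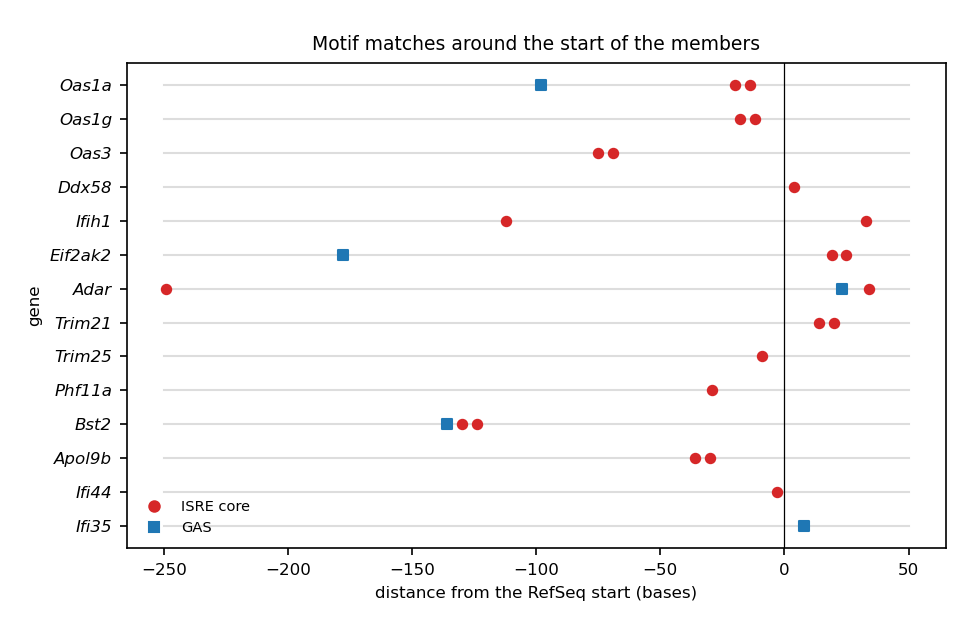
Positions of motif matches relative to the RefSeq start (horizontal axis, bases) in the 14 members with at least 1 match, using for each the 1 window nearest its main entry; red circles are response-element cores and blue squares gamma-activated sites. Close pairs of red circles are the overlapping cores of 7 genes, and blue squares appear in 5 genes because the match of the remaining gene lies in another of its windows.

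The authors' deposited table gives, for each pair of groups, a fold change of at least 2, a q-value of at most 0.0499 and the summed FPKM (fragments scaled to transcript length and library size) of both groups. From the fold and the sum, the FPKM of each group was rebuilt. The same level rebuilt from different rows differed by at most 0.193% at or above 1 FPKM. These are group values with no value per sample, so neither a spread between replicates nor the sequencing depth could be given and no test was run here. A gene without a row in a comparison was below 2-fold, above the q limit, or not testable, which the table does not separate. In what follows "rose" and "fell" refer to rows in the table, and the main entry of a gene is its transcript with the highest level in any group.

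Cited1, the gene carried by the construct, was listed at 0.703 FPKM in untreated and 168 FPKM in doxycycline-treated construct cells. It stood at 11.5 FPKM with IFNγ alone and 86.7 FPKM with both treatments, so cells given IFNγ alone were not at the untreated level of Cited1. Of the macrophage markers, Adgre1, Itgam and Ptprc were listed (3 of 7), and Adgre1, the F4/80 antigen, was at 28.6 FPKM in untreated and 32.6 FPKM in doxycycline-treated parental cells, 12.2 FPKM in untreated construct cells and 5.03 FPKM with both treatments. Itgam, an integrin subunit, fell from 42.4 FPKM in untreated construct cells to 20.0 FPKM with both treatments. The main entry of Ptprc, the CD45 antigen, rose from 50.8 FPKM in untreated construct cells to 110.7 FPKM with IFNγ and stood at 164.3 FPKM with both treatments. Markers of T cells, B cells, fibroblasts and epithelial cells had no row, which does not show that they were absent. Adgre1 differed between the lines, and the part of this in the results below was not tested.

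With IFNγ alone, 29 of the 35 genes rose and 0 fell in construct cells, where 25.7% of all listed genes rose and 24.3% fell. The percentage is of genes listed in any comparison, since the number the authors tested is not in the table. Over the 26 main entries with a level in every group, the median was 11.6 FPKM in untreated cells and 50.3 FPKM with IFNγ. Main entries are chosen by their highest level in any group, treated groups included, and levels come only from listed rows. Both favour a rise of this median, and no such median over all genes is given here. The median log2 ratio of the 29 was 2.07, against 1.54 for all genes that rose. With the ratios rescaled so that the rows listed for this comparison had a median log2 ratio of 0, 17 genes stayed past 2-fold, and with a rescaling over all entries with both levels, added after the first was seen, 19 did. In untreated construct cells the levels ranged from 0.0919 FPKM (Mx1) to 640 FPKM (Ifi27l2a), and 10 of 34 main entries were under 5 FPKM.

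**Figure D2:**
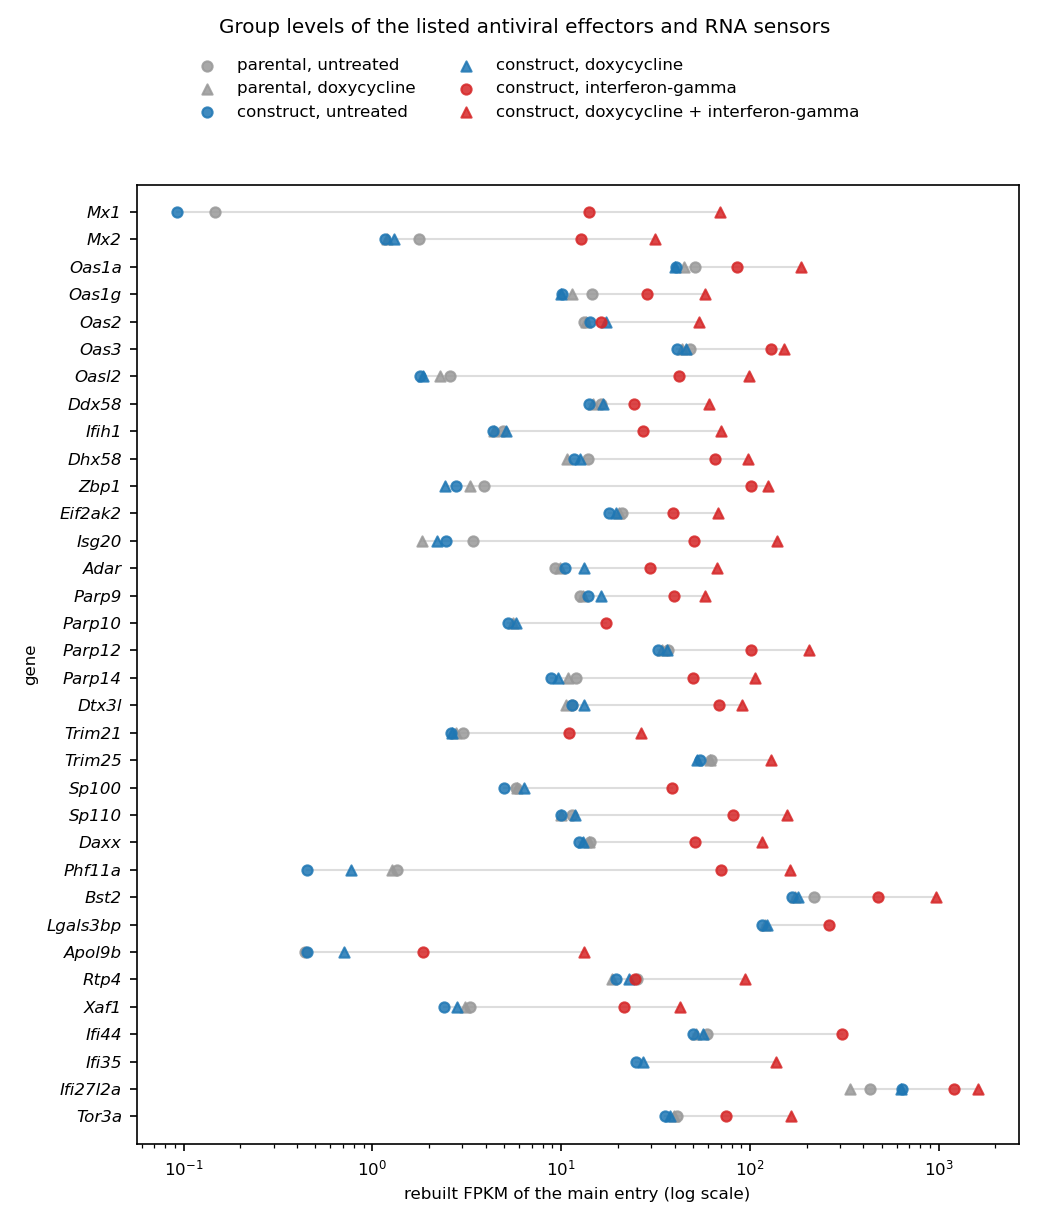
Rebuilt FPKM (log scale) of the main entry of each of the 34 listed genes in the 6 groups; a missing symbol means that no row gave that level, and there are no error bars because the table holds no replicate values. Red symbols, the IFNγ-treated groups, lie to the right of the grey and blue ones except for Oas2 and Rtp4 with IFNγ alone, where Oas2 (16.3 FPKM) is below doxycycline-treated construct cells (17.2 FPKM) and Rtp4 (24.6 FPKM) below untreated parental cells (25.2 FPKM).

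The largest increases with IFNγ were in genes with low levels beforehand. Phf11a, a PHD finger protein gene, stood at 0.453 FPKM and reached 70.0 FPKM, a 154.42-fold rise in the authors' deposited table (q = 0.000387). Mx1, a dynamin-like GTPase that restricts influenza and related viruses, went from 0.0919 to 14.1 FPKM, listed at 153.08-fold in the authors' deposited table (q = 0.00884). Its main entry is annotated as a nonsense-mediated decay transcript in GENCODE, and that of its relative Mx2 as a polymorphic pseudogene. Zbp1, a sensor of Z-form nucleic acid that can start necroptosis, went from 2.77 to 102 FPKM. Partners of ZBP1 were counted from a separate list, and Casp8, Mlkl and Ripk3 rose with IFNγ while Ripk1 had no such row.

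Among the other sensors, Dhx58 rose from 11.7 to 65.3 FPKM and Ifih1 from 4.36 to 27.1 FPKM. Eif2ak2, which encodes the double-stranded-RNA-activated kinase PKR, rose from 17.9 to 39.0 FPKM. Ddx58 had no row, with levels of 14 and 24.3 FPKM. All 4 members of the nuclear group (Daxx, Phf11a, Sp100 and Sp110) and all 5 of the PARP and DTX3L group rose, with the highest q among all 29 at Parp10 (0.0479 in the authors' deposited table). In the OAS family, which makes the 2-5A second messenger that activates RNase L, 4 of 5 rose. The exception was Oas2, at 14.2 FPKM untreated and 16.3 FPKM with IFNγ.

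Isg20, an RNA exonuclease, rose from 2.46 to 50.6 FPKM. Bst2, or tetherin, which holds budding virions at the membrane, rose from 167 to 476 FPKM. Ifi44 rose from 50.1 to 307 FPKM and Lgals3bp, a secreted glycoprotein, from 116 to 264 FPKM. Ifi27l2a, the most abundant of these transcripts, had levels of 640 and 1208 FPKM and no row. Rtp4 rose in its smaller entry (2.11-fold in the authors' deposited table), whereas its main entry had levels of 19.6 and 24.6 FPKM. No level with IFNγ alone could be rebuilt for Ifi35 or Trim25.

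With doxycycline present in both groups, IFNγ raised 29 of the 35 genes and lowered 0, where 33.8% of all listed genes rose and 33.8% fell. The median log2 ratio was 2.52, against 1.66 for all genes that rose. 24 genes rose in both IFNγ comparisons. Ddx58, Ifi27l2a, Ifi35, Oas2 and Trim25 were listed only with doxycycline present, and Ifi44, Lgals3bp, Mx1, Parp10 and Sp100 only without it. The same overlap over all listed genes is not given here, so it is not known whether this division is particular to the members. No level of Mx1 with doxycycline alone could be rebuilt, and the difference between the comparisons was not tested. Ifi44, Lgals3bp, Parp10 and Sp100 have no row at all that gives a level with both treatments, as do 121 (8.7%) of the 1391 genes that rose with IFNγ, so their levels there are unknown.

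Phf11a rose from 0.767 to 163 FPKM, listed at 212.48-fold in the authors' deposited table. Isg20 rose from 2.2 to 139 FPKM, Oasl2, a relative of the OAS enzymes, from 1.86 to 99.5 FPKM and Zbp1 from 2.44 to 126 FPKM. At the other end, Trim25, a ubiquitin ligase that acts on RIG-I, rose from 52.5 to 129 FPKM and Ifi27l2a from 630 to 1626 FPKM. Against cells with neither treatment, cells with both had 30 genes higher and 0 lower (34% of all listed genes were higher and 34% lower), with a median log2 ratio of 2.84 against 1.66. These 3 comparisons share groups, so their values are not independent.

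**Figure D3:**
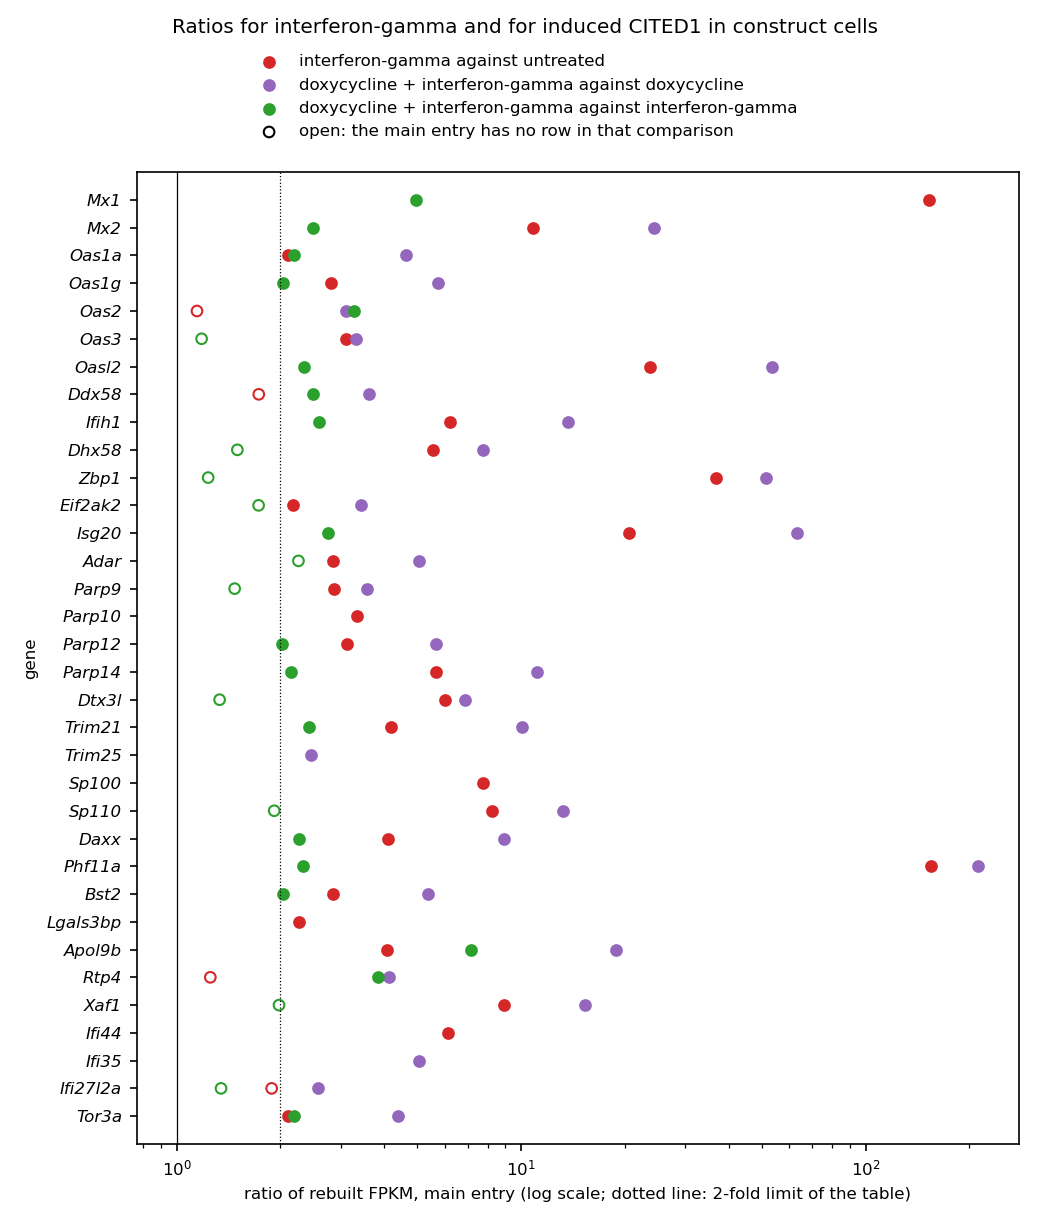
Ratio of rebuilt FPKM (log scale) of each main entry for 3 comparisons in construct cells; filled circles have a row in the authors' deposited table and open circles do not, and the dotted line marks 2-fold. Every circle lies to the right of 1, and the green circles, for doxycycline in IFNγ-treated cells, run from 1.18 to 7.17.

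In IFNγ-treated construct cells, doxycycline raised 18 of the 35 genes and lowered 0, where 6.87% of all listed genes rose and 6.37% fell. By role these were 2 of 2 GTPases, 4 of 5 OAS genes, 2 of 5 sensors, 1 of 2 RNA-acting enzymes, 2 of 5 PARP and DTX3L genes, 1 of 2 TRIM ligases, 2 of 4 nuclear proteins, 3 of 4 membrane or secreted proteins and 1 of 6 other interferon-induced genes. These totals include Parp10, Trim25, Sp100, Lgals3bp, Ifi44, Ifi35 and Cmpk2, which lack a rebuilt level with IFNγ alone or with both treatments. Differences between roles were not tested. The median log2 ratio of the 18 was 1.25 and that of all 371 genes that rose was 1.30, so the called members were no larger than other genes that rose. The count depended on scaling: rescaled on the rows listed for the comparison, which omit everything under 2-fold, 2 genes stayed past 2-fold, and rescaled over all entries with both levels, 14 did. As deposited, the 18 took ranks from 11 (Apol9b) to 351 (Parp12) among the 371. The median level of the 26 main entries with all levels was 50.3 FPKM with IFNγ and 98.7 FPKM with both treatments, under the same limit of selection as above.

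Apol9b, an apolipoprotein L family gene, stood at 0.442 FPKM in untreated parental, 0.452 in untreated construct, 0.705 in doxycycline-treated construct, 1.85 in IFNγ-treated and 13.3 FPKM in doubly treated cells. It was 7.16-fold higher with doxycycline in stimulated cells in the authors' deposited table (q = 0.000387). Mx1 stood at 0.146 and 0.0919 FPKM in untreated parental and construct cells, 14.1 FPKM with IFNγ and 69.6 FPKM with both. The authors' deposited table lists it at 4.95-fold, and at 4.41-fold for its protein-coding second entry. Mx2 levels were 1.77, 1.2, 1.17, 1.30, 12.7 and 31.6 FPKM in the order parental untreated, parental doxycycline, construct untreated, construct doxycycline, IFNγ and both. That order is used for all series of 6 values below, and the last comparison of Mx2 was 2.49-fold in the authors' deposited table.

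The OAS genes divided. Oas2 stood at 13.2, 13.6, 14.2, 17.2, 16.3 and 53.6 FPKM, so that only the doubly treated group stood apart, at 3.28-fold over IFNγ alone in the authors' deposited table. Oas1a stood at 51.4, 44.7, 40.5, 40.1, 85.1 and 186 FPKM (2.19-fold in the authors' deposited table). Oas1g stood at 14.6, 11.5, 10.1, 10.0, 28.4 and 57.8 FPKM (2.04-fold in the authors' deposited table). Oasl2 stood at 2.59, 2.29, 1.79, 1.86, 42.4 and 99.5 FPKM (2.35-fold in the authors' deposited table). Oas3 had no row, at 129 and 152 FPKM in the last groups, although its promoter above holds the same kind of overlapping cores as those of Oas1a and Oas1g. Oas1a, Oas1g and Oas1b are close paralogs, and reads shared between them may be divided by the authors' counting.

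Ddx58 and Ifih1 were the sensors that rose. Ddx58 stood at 16.3, 14.7, 14, 16.7, 24.3 and 60.4 FPKM and was 2.49-fold higher in the authors' deposited table. Ifih1 stood at 4.95, 4.43, 4.36, 5.12, 27.1 and 70.0 FPKM and was 2.59-fold higher in the authors' deposited table. Both had their highest level with both treatments, but Ifih1 already rose with IFNγ and Ddx58 had no row there. The other sensors had no row, with 65.3 and 98.0 FPKM for Dhx58, 102 and 126 FPKM for Zbp1, and 39.0 and 67.5 FPKM for Eif2ak2.

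Isg20 stood at 3.42, 1.84, 2.46, 2.2, 50.6 and 139 FPKM, a 2.75-fold rise over IFNγ alone in the authors' deposited table. Rtp4, a receptor-transporting protein, stood at 25.2, 18.6, 19.6, 22.9, 24.6 and 94.5 FPKM (3.84-fold in the authors' deposited table). Like Oas2, its main entry stood apart in the doubly treated group only. Bst2 stood at 219, 173, 167, 180, 476 and 971 FPKM (2.04-fold in the authors' deposited table). Trim21, an intracellular antibody receptor and ubiquitin ligase, stood at 3.01, 2.77, 2.63, 2.65, 11 and 26.6 FPKM (2.42-fold in the authors' deposited table).

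Daxx, a histone H3.3 chaperone of nuclear bodies, stood at 14.2, 14, 12.4, 13, 51.2 and 116 FPKM (2.27-fold in the authors' deposited table). Phf11a stood at 1.36, 1.28, 0.453, 0.767, 70.0 and 163 FPKM (2.33-fold in the authors' deposited table). Parp12 stood at 37.0, 34.2, 32.7, 36.3, 102 and 205 FPKM (2.02-fold in the authors' deposited table). In both genes the IFNγ-treated groups stood above all unstimulated groups. Parp14, an ADP-ribosyltransferase like Parp12, stood at 11.9, 10.9, 8.85, 9.62, 50.0 and 107 FPKM (2.14-fold in the authors' deposited table). Tor3a, a torsin family ATPase, stood at 41.2, 39.5, 35.6, 37.6, 75.2 and 165 FPKM (2.19-fold in the authors' deposited table). The main entries of all 18 genes had q = 0.000387 in the authors' deposited table. That is the smallest q among the rows used, shared by 83.7% of all rows of the members, so it does not set these 18 apart.

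For the 16 listed genes without a row in this comparison, 10 main entries had both levels. Their ratios ran from 1.18 (Oas3) to 2.26 (Adar), and Xaf1 at 1.98 and Sp110 at 1.92 lay just under the 2-fold limit that Parp12, Oas1g and Bst2 just passed. Adar, an RNA-editing enzyme that marks self RNA, had no row although its main entry was past 2-fold. The number called thus depends on where the 2-fold limit falls. Over all main entries with both levels, 28 of 28 were above 1, where 57.1% of all entries with both levels and at least 1 FPKM in one of them were. Main entries are chosen by their highest level in any group, doubly treated cells included, which favours ratios above 1. The 57.1% is over entries not chosen in that way, so the 2 shares are not like for like. Adar-201, which is not a main entry, stood at 38.6 FPKM with IFNγ and 37.0 FPKM with both treatments.

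**Figure D4:**
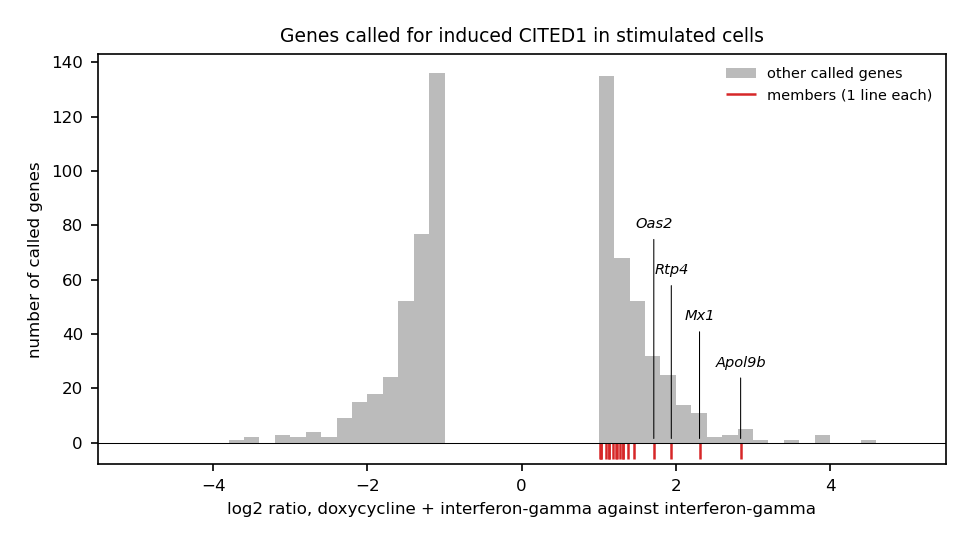
Number of called genes by log2 ratio of doxycycline plus IFNγ against IFNγ in construct cells; grey bars are other genes and red lines the 18 members. All red lines lie on the right, between 1.01 and 2.84, over the bulk of the grey bars of genes that rose, and the gap around 0 is the 2-fold limit of the authors' deposited table.

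Other genes of the pathway were counted from a list of 53, of which 36 were listed. That list too was chosen with earlier results of these data known. With IFNγ alone 26 rose and 1 fell, where 25.7% of all listed genes rose and 24.3% fell. With doxycycline in stimulated cells 13 rose and 0 fell, where 6.87% of all listed genes rose and 6.37% fell. Those 13 were Rnf135, Tlr3, Tlr7, Ifnb1, Apobec3, Ddx60, Herc6, Ifit1, Ifit3, Isg15, Oas1b, Zc3hav1 and Znfx1. Tlr7, Zc3hav1 and Ifit1 rose there in smaller entries only. That of Tlr7 went from 1.35 to 4.21 FPKM. Its larger entry was the 1 that fell with IFNγ alone, from 41.3 to 15.9 FPKM. The entry of Zc3hav1 went from 7.87 to 17.9 FPKM, while a larger one stood at 66.6 FPKM with both treatments. That of Ifit1 went from 2.10 to 10.7 FPKM, while a larger one stood at 59.6 FPKM with IFNγ alone. Ifnb1, the interferon-beta gene, went from 1.40 to 6.18 FPKM, and Isg15, a ubiquitin-like modifier, from 358 to 1429 FPKM. Of the list's 16 genes for interferon signalling, Ifnb1 was the one that rose. Of the ZBP1 partners 0 of 4 had a row.

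Without IFNγ, none of the 35 genes had a row for doxycycline. In construct cells 0 rose and 0 fell (0.204% of all listed genes rose and 0.222% fell), although Cited1 rose 238.85-fold in the authors' deposited table. The ratios of the 33 main entries with both levels ran from 0.882 to 1.69 with a median of 1.1, and 27 of 33 were above 1, against 49.1% of all entries with both levels and at least 1 FPKM in one of them. The same minimum holds for the percentages of entries below, but not for the members' ratios. In parental cells 0 rose and 0 fell (0.111% of all listed genes rose and 0.796% fell), with ratios from 0.539 to 1.07, a median of 0.905 and 4 of 29 above 1, against 51.7% of all such entries. These ratios have no test. 

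Between the lines, 0 genes were higher (1.74% of all listed genes) and 1 was lower (2.8%) in untreated construct cells. The lower gene was Phf11a, at 0.453 against 1.36 FPKM, 3.0-fold in the authors' deposited table (q = 0.00365). The ratios of construct to parental cells ran from 0.333 to 1.48 with a median of 0.857, and 6 of 31 were above 1, against 43.8% of all such entries. Of the other pathway genes, Ddx60 and Ifit3 were also lower. With doxycycline in both lines, 0 genes were higher and 0 lower (2.41% and 3.18% of all listed genes), with a median ratio of 1.05 and 19 of 31 above 1, against 44.3% of all such entries. Each unstimulated group enters 2 of these 4 comparisons, so the ratios are not independent.

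**Figure D5:**
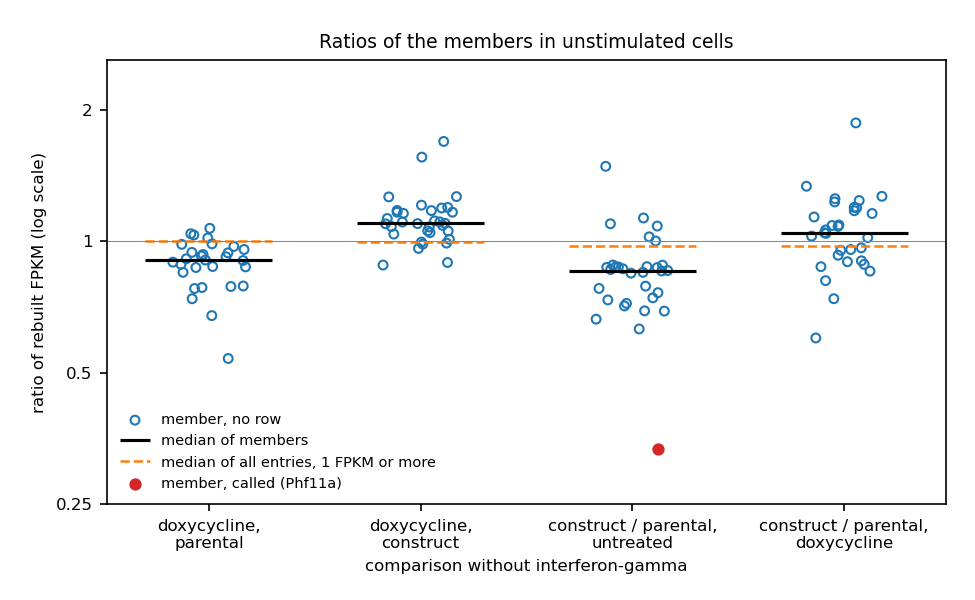
Ratio of rebuilt FPKM (log scale) of the members' main entries in the 4 comparisons without IFNγ; open circles have no row, the filled red circle is Phf11a, black bars are medians of members and dashed orange bars medians of all entries with at least 1 FPKM in one group. Member medians are 0.905, 1.1, 0.857 and 1.05 from left to right, and Phf11a is at 0.333.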

How the data were processed

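The 35 genes and the pathway lists were chosen with earlier results of these data known. Per the submitters' processing notes, tools used included FastQC 0.11.5, STAR 2.5.3a and Cuffdiff 2.2.1; the build they used is not given in the sources used here. Significant differences came as 1 table that the authors deposited, with a linear fold ratio, the summed FPKM of both groups and a q-value for each pair, and no value per sample. Of its 112230 rows, 77406 name groups not analysed here and 34824 were used. The level of the lower group was the deposited FPKM sum divided by 1 plus the fold, and the median over rows was taken (Python 3.11.15, pandas 2.3.3, numpy 2.4.6). A gene counted as higher or lower when all its called entries agreed in direction. The rebuilding was tested on simulated data. Members called for doxycycline, or between lines, are given in full and others by range and examples. Promoter windows came from RefSeq (GRCm38.p6) and transcript types from GENCODE; the bases after the start lay in a GENCODE transcript for 22 of 24 members. Alternatives were a q limit of 0.01, a minimum of 1 FPKM, a pseudocount of 1 FPKM, rescaling and the treatment of entries.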

Additional observations from a re-analysis of the deposited data

How the results depend on the processing

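Over 80 alternative values for the counts and medians of called genes, 64 stayed within tolerance, 16 moved and 0 reversed direction. Most alternatives only filtered or rescaled rows already called at 2-fold or more, and under these a reversal could not occur. Where 0 members were called, they could only return 0 again. The tally is therefore a description and not a measure of how robust the results are. The tolerance was 1.5 times for a count and, there being no replicate spread, 1.1-fold for a median, a choice made here. The planned rescaling set the median log2 ratio of the rows listed for a comparison to 0. Because those rows omit everything under 2-fold, that median falls at the edge of one side, with shifts of 1.04 for IFNγ alone, 1.07 for IFNγ with doxycycline, 1.05 for doxycycline in stimulated cells and 1.06 for both treatments against none. Under it IFNγ alone called 17 genes (median log2 1.915), doxycycline in stimulated cells 2 (median 1.524) and the lines without doxycycline 0 (shift -1.16), and the medians were 2.174 for IFNγ with doxycycline and 2.08 for both treatments. After that result had been seen, a second rescaling on all entries with both levels was added, with shifts of 0.647, 1.02, 0.103 and 1.02 in that order. Levels could be rebuilt only from listed rows, so the second rescaling is not free of the 2-fold limit either. Its shifts of 1.02 correspond to a median ratio of 2.02, again at the edge of one side. Under the second, IFNγ alone called 19 genes, and the medians were 2.227 for IFNγ with doxycycline and 2.127 for both treatments. The share of calls that were higher, over all genes, was 51.5% for IFNγ alone, 49.9% with doxycycline and 51.9% for doxycycline in stimulated cells as deposited. It became 26.8%, 27.3% and 11.1% under the planned rescaling, and 34%, 28.2% and 45.7% under the added one. For both treatments against none it went from 49.9% to 27.4% and 28.2%. Without IFNγ, where few genes were called, the planned rescaling moved it from 47.8% to 100% for doxycycline in construct cells, from 12.2% to 100% in parental cells, from 38.4% to 74.2% between untreated lines and from 43% to 71.8% between doxycycline-treated lines. The count of 18 for doxycycline in stimulated cells became 14 under the added rescaling. Counting entries gave 44 for IFNγ alone. The median for IFNγ alone was 2.272 at a q limit of 0.01 and 2.372 with the pseudocount, which also left 0 genes between the lines. The median of called entries gave 2.78 for IFNγ with doxycycline and 2.992 for both treatments. Counting names merged with a second locus was also added after the data were seen. No paired analysis was possible because the table has no values per sample, nor could a replicate be left out.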

Other observations

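Transcripts of one gene did not always move alike with doxycycline in stimulated cells. For Adar, the entry Adar-203 stood at 29.7 FPKM with IFNγ and 67.0 FPKM with both treatments, while Adar-201 stood at 38.6 and 37.0 FPKM; neither had a row for this comparison. Zbp1 showed a second entry at 0.535 FPKM untreated, 68.4 FPKM with IFNγ and 92.7 FPKM with both. Daxx had a second entry at 21.5 and 60.9 FPKM in the stimulated groups, listed at 2.83-fold in the authors' deposited table.

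Entries named together with a second locus were left out of the counts. That of Cmpk2 went from 8.01 FPKM untreated to 161 FPKM with IFNγ, 20.15-fold in the authors' deposited table, and no row gave its level with both treatments. That of Xaf1, a pro-apoptotic interferon-induced gene, stood at 4.23, 31.6 and 81.8 FPKM in untreated, IFNγ-treated and doubly treated construct cells. Reads of the named gene and the second locus cannot be told apart in these entries.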
